A study of Mus musculus with 12 samples.

Results

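*Gng3*, *Fabp3*, *Tmem158*, *Tceal5*, *Snn* and *Fam163b* are 6 genes of the hippocampal CA1 region, an excitatory cell field needed for spatial memory, whose transcripts were much lower after deletion of *Tip60*, the gene of a lysine acetyltransferase. They were picked for the size of their fall in Tip60 cKO mice against control mice, out of 2412 genes tested among 7254 genes with a measured level. Their falls are therefore a description and carry no test. The order of falls over all tested genes of the deposited table was taken by the log2 change of the level + 1. In it the 6 genes took places 1 (*Gng3*), 2 (*Tmem158*), 3 (*Fabp3*), 4 (*Tceal5*), 6 (*Snn*) and 9 (*Fam163b*).

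RNA-Seq was performed on CA1 tissue of male C57BL/6N mice, 6 Tip60 cKO and 6 control littermates, with 1 library per mouse. Tip60 cKO mice carried the floxed *Tip60* gene and CaMKCreERT2, a tamoxifen-inducible Cre recombinase driven by a promoter of excitatory forebrain neurons, whereas controls carried the floxed gene without Cre. Both genotypes were given tamoxifen at 2 months of age and were sacrificed 10 days after the last injection. Cre was present in Tip60 cKO mice alone, so its own effect and that of the deletion cannot be told apart, and the transcript of *Tip60* (*Kat5*) was not analysed here. Levels are in FPKM, the fragments of a transcript relative to its length and to library depth, so levels of different genes can be set side by side. The estimated depth was 31.7 to 35.9 M reads in Tip60 cKO libraries and at 31.5 to 38.0 M reads in control libraries. With scaling as deposited, 477 genes were higher and 157 lower in Tip60 cKO mice by more than 1.2-fold (limma, adjusted p below 0.05), which makes 75.2% of these calls higher. After scaling each library by its median ratio to the others the split was 282 higher and 279 lower, or 50.3% higher, and the median log2 change of all tested genes was 0.01 in place of 0.09.

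The products of the 6 genes have different known roles. *Gng3* encodes a gamma subunit of heterotrimeric G proteins, which pairs with a beta subunit to anchor the G protein at the membrane and to signal to ion channels and enzymes once a receptor is activated. *Fabp3* encodes a fatty acid binding protein, first known from heart muscle and also made in neurons, that carries long-chain fatty acids through the cytosol. *Tmem158* encodes a membrane protein first described in human fibroblasts as a transcript induced by active Ras. *Tceal5* belongs to a family of X-linked genes named for their similarity to the transcription elongation factor TFIIS. *Snn* encodes stannin, a small membrane protein linked to the sensitivity of cells to organotin compounds. *Fam163b* encodes a predicted membrane protein of little known function. The genes lie on 6 different chromosomes (19, 4, 9, X, 16 and 2, in the order *Gng3*, *Fabp3*, *Tmem158*, *Tceal5*, *Snn* and *Fam163b*).

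Promoter sequences of 5 of the genes were found in RefSeq (GRCm38.p6 build), and the 150 bases before each annotated start are shown because these genes were lower together, with the matches of the searched motifs in capitals. The windows are chr19:8839247-8839396 for *Gng3*, chr4:130308588-130308737 for *Fabp3*, chrX:136203885-136204034 for *Tceal5*, chr16:11066148-11066297 for *Snn* and chr2:27142478-27142627 for *Fam163b*. *Gng3*, *Tceal5* and *Fam163b* lie on the minus strand, and *Fabp3* and *Snn* on the plus strand.
Gng3: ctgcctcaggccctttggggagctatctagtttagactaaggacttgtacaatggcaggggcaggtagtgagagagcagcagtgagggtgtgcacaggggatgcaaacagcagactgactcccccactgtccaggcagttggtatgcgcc
Fabp3: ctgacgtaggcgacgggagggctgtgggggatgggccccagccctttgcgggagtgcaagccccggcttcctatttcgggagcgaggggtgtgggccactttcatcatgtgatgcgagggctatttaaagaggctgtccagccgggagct
Tceal5: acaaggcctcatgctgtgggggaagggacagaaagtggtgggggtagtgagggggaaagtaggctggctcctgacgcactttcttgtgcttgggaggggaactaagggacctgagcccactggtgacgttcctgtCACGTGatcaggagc
Snn: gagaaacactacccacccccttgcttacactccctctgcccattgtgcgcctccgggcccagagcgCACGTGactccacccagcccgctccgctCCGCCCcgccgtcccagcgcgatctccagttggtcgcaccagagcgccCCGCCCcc
Fam163b: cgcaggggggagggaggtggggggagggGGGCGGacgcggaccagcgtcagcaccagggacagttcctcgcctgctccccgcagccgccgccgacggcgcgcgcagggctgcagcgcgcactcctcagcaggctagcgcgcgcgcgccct

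The motifs searched on both strands of the 250 bases before the start were GGGCGG, which is the core of a GC box, the sequence CCAAT, the TATA box form TATAAA, the palindromic E-box CACGTG, the cyclic AMP response element TGACGTCA, and the E2F site forms TTTGGCGC and, as the other form, TTTCCCGC. No motif was found in all 5 promoters. CACGTG stood 15 bases before the first of 3 annotated starts of *Tceal5* and 84 bases before that of *Snn*, and 6.02% of 32851 mouse promoters of this length hold it. GGGCGG had 2 matches in *Snn* and 1 in *Fam163b*, against a share of 32.7% of all promoters. *Snn* also held CCAAT, 215 bases before its start and outside the window shown, as do 33.8% of all promoters. *Gng3* and *Fabp3*, at places 1 and 3 in the order of falls, held none of the 7 motifs. The promoters also differed in CpG content. The ratio of observed to expected CpG was 0.101 in *Gng3*, a value under which 15% of all promoters fall, against 0.678 in *Fabp3*, 0.253 at the first start of *Tceal5*, 0.748 in *Snn*, 0.822 in *Fam163b* and a median of 0.704 over the 1664 tested genes with a promoter sequence.

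In Tip60 cKO libraries *Gng3* ranged from 26.5 to 33.4 FPKM with a median of 29.2, against 70.8 to 80.2 FPKM with a median of 77.8 in control libraries. Every Tip60 cKO library was below every control library, with 37.3 FPKM between the highest Tip60 cKO and the lowest control library. The mean was 29.4 ± 2.76 FPKM in Tip60 cKO mice and 77.1 ± 3.24 FPKM in control mice (SD, n = 6 each), which is 2.62-fold lower, with a log2 change of -1.36 (SE 0.05) on the log2(FPKM + 1) scale. In bulk tissue, fewer cells that express a gene and less RNA per cell cannot be told apart.

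*Tmem158* ranged from 7.59 to 9.21 FPKM with a median of 8.13 in Tip60 cKO libraries, against 17.0 to 24.6 FPKM with a median of 21.7 in control libraries. Its groups did not overlap, although control mouse 4 lay under the other controls at 17.0 FPKM. The mean was 8.35 ± 0.674 FPKM in Tip60 cKO mice and 21.6 ± 2.65 FPKM in control mice (SD, n = 6 each), a level 2.59-fold lower, with a log2 change of -1.27 (SE 0.07).

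For *Fabp3* the Tip60 cKO libraries ranged from 29.1 to 39.1 FPKM with a median of 35.7, against 75.7 to 86.0 FPKM with a median of 81.0 in control libraries. No library of one genotype reached the range of the other. Tip60 cKO mice 1 and 2 were the lowest of their group, at 29.1 and 32.0 FPKM. The mean was 34.8 ± 3.8 FPKM in Tip60 cKO mice and 81.2 ± 3.79 FPKM in control mice (SD, n = 6 each), or 2.33-fold lower, with a log2 change of -1.20 (SE 0.06).

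*Tceal5* had the narrowest control range of the 6 genes. Its Tip60 cKO libraries ranged from 31.6 to 38.1 FPKM with a median of 37.1, against 64.1 to 68.7 FPKM with a median of 67.0 in control libraries. The groups were separated by 26.0 FPKM. The mean was 35.9 ± 2.73 FPKM in Tip60 cKO mice and 66.6 ± 1.87 FPKM in control mice (SD, n = 6 each), 1.85-fold lower, with a log2 change of -0.88 (SE 0.05).

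*Snn* was the most abundant of the 6 genes in both genotypes. It ranged from 45.7 to 52.1 FPKM with a median of 48.1 in Tip60 cKO libraries, against 78.2 to 90.9 FPKM with a median of 86.5 in control libraries, again without overlap. The mean was 48.4 ± 2.37 FPKM in Tip60 cKO mice and 85.7 ± 5.19 FPKM in control mice (SD, n = 6 each), 1.77-fold lower, with a log2 change of -0.81 (SE 0.04).

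*Fam163b* varied most relative to its mean, with a coefficient of variation of 16.5% in Tip60 cKO mice and 17.6% in control mice. In Tip60 cKO libraries it ranged from 14.2 to 20.8 FPKM with a median of 14.9, against 21.7 to 33.4 FPKM with a median of 29.3 in control libraries. Only 0.91 FPKM lay between the highest Tip60 cKO and the lowest control library. Tip60 cKO mice 1 and 2 were high for their group at 18.5 and 20.8 FPKM, and control mice 1 and 2 were low for theirs at 21.7 and 23.7 FPKM. The mean was 16.3 ± 2.69 FPKM in Tip60 cKO mice and 28.4 ± 5.0 FPKM in control mice (SD, n = 6 each), 1.74-fold lower, with a log2 change of -0.76 (SE 0.12).

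**Figure D1:**
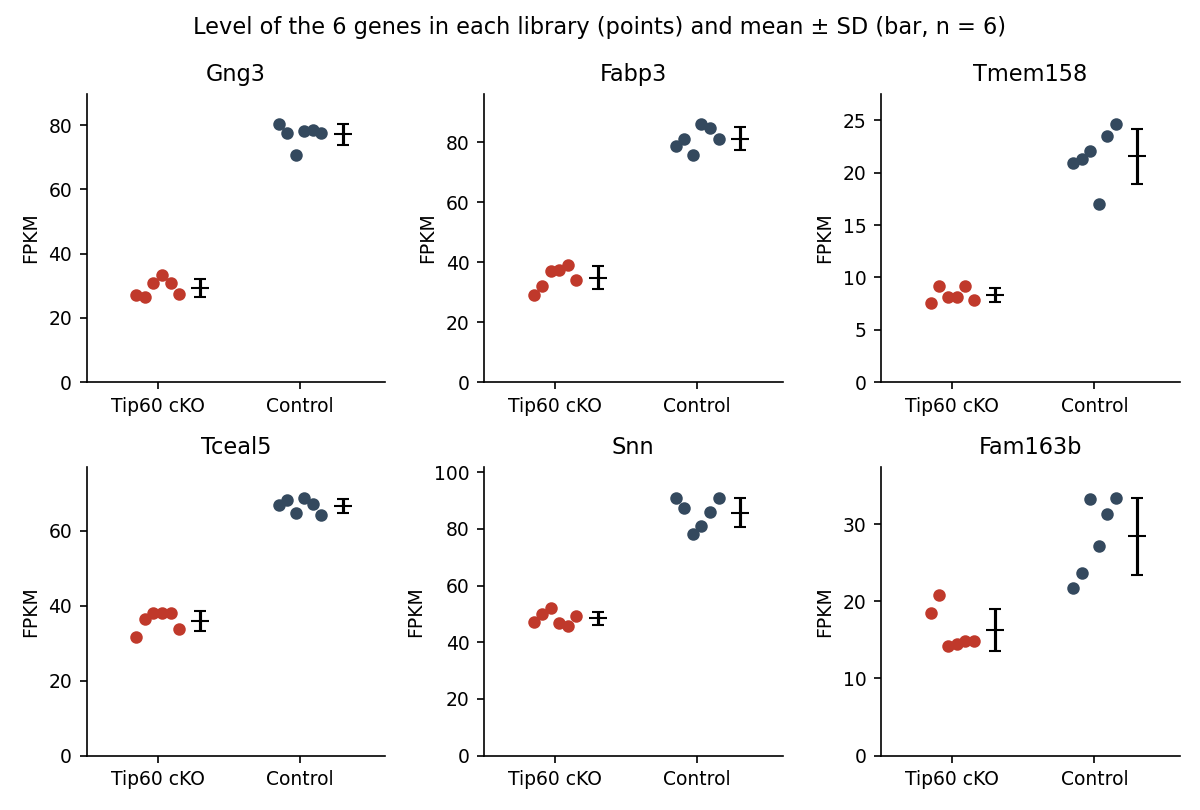
Level in FPKM (y axis, from 0) of each of the 6 genes in 6 Tip60 cKO and 6 control libraries (points), with the mean and SD of each group beside them. The groups do not overlap for any gene, and they come closest for *Fam163b*, at 20.8 FPKM in the highest Tip60 cKO library and 21.7 FPKM in the lowest control library.

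Since the genes were picked on this contrast, their count adds nothing to it: 6 of 6 were lower past both thresholds, against 6.51% of all tested genes (19.8% were higher past both), and 6 of 6 had no overlap between the groups in this direction, against 8.33%. The median log2 change of the 6 genes was -1.04, and that of all tested genes was 0.09. With median-ratio scaling the log2 changes were larger in size for each gene, from -0.88 for *Fam163b* to -1.48 for *Gng3*. Around the end of the list the values were close together. *Gm1337* (-0.86), *Cacng5* (-0.79) and *Mgat3* (-0.77) stood between members in the order of falls, and *2700090O03Rik* (-0.71), *Arsb* (-0.69), *Nptx1* (-0.68) and *Gpr25* (-0.67) followed *Fam163b*. The 1 FPKM added before the log2 makes changes of low-level genes smaller, so these places depend on it. *Gm1337* was at 4.21 FPKM in Tip60 cKO mice and 8.46 in control mice, *Cacng5* at 2.69 and 5.38, and *Gpr25* at 1.59 and 3.1. Relative to their control means in plain FPKM, these genes fell more than *Tceal5*, *Snn* and *Fam163b*.

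In control mice all 6 genes were among the more abundant transcripts measured. Of 7254 genes ranked by their control mean, *Snn* was at place 120, *Fabp3* at 123, *Gng3* at 130, *Tceal5* at 148, *Fam163b* at 389 and *Tmem158* at 491. Each lay in the top 6.77% of the measured genes, whose median control level was 0.0807 FPKM. These are places in the deposited table and not among all transcripts of CA1. That table held 3 of 33 listed general neuronal genes, 1 of 14 listed excitatory CA1 genes and 0 of 8 listed astrocyte genes. Over single control libraries the place of *Snn* ranged from 112 to 126 and that of *Tmem158* from 446 to 617. The ranges of control levels overlapped between each pair of *Snn*, *Fabp3* and *Gng3*, and between *Fam163b* and *Tmem158*. In contrast, every control library had more *Gng3* than the highest had of *Tceal5*. Ranked by the Tip60 cKO mean, the places were 216 for *Snn*, 324 for *Tceal5*, 332 for *Fabp3*, 400 for *Gng3*, 667 for *Fam163b* and 1052 for *Tmem158*.

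**Figure D2:**
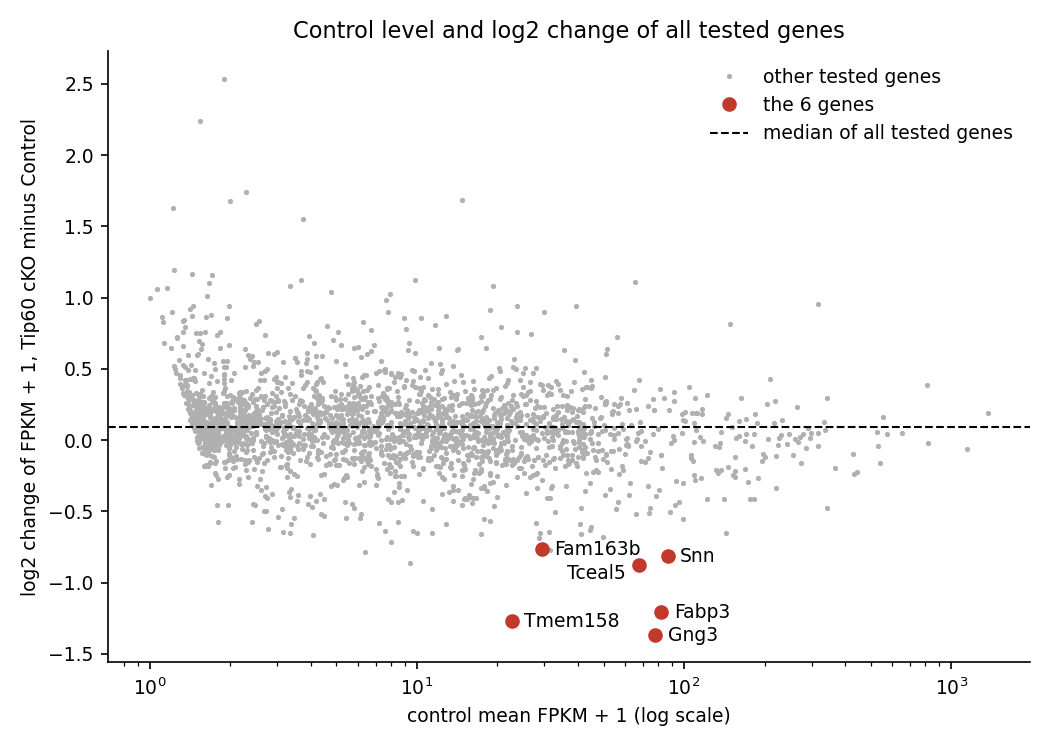
Control mean FPKM + 1 (x axis, log scale) against the log2 change of FPKM + 1, Tip60 cKO minus control (y axis), for 2412 tested genes (grey points) and the 6 described genes (red points). The 6 genes lie at control means of 21.6 to 85.7 FPKM and log2 changes of -1.36 to -0.76, under the median of all tested genes at 0.09 (dashed line).

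The spread between mice was larger than counting error for every gene. From depth and annotated transcript length, *Tmem158* was measured from about 450 to 550 reads in Tip60 cKO libraries and from about 1100 to 1500 reads in control libraries, the fewest of the 6 genes. *Snn* had the most, at about 4200 to 5000 reads in Tip60 cKO libraries and 8200 to 9500 in control libraries. Counting alone would give *Fam163b* a coefficient of variation of 2.47% in Tip60 cKO mice and 1.83% in control mice, far under the observed values. For *Gng3* the observed values were 9.40% in Tip60 cKO mice and 4.20% in control mice. The median over the 1300 tested genes that averaged 5 FPKM or more was 5.59% in Tip60 cKO mice and 5.88% in control mice.

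Other genes of the same pathways were then examined, and their counts can be read against the 6.51% of all tested genes that were lower and the 19.8% that were higher past both thresholds. The deposited table held 12 of 32 other G protein subunit genes and 5 of 27 effectors and partners of the beta-gamma dimer. It held 10 of 31 genes of fatty acid uptake and oxidation, 8 of 15 relatives of *Tceal5* and 5 of 29 Ras and ERK pathway genes. Listed genes outside the table have no known level here. Of 32 other G protein subunit genes listed, 7 were tested, 2 were lower in Tip60 cKO mice past both thresholds and none was higher, against 6.51% lower and 19.8% higher of all tested genes, with a median log2 change of 0.01 against 0.09. Both were gamma subunits, as were all the tested subunits but *Gnai2*. *Gng2* was at 38.9 ± 2.20 FPKM in Tip60 cKO mice and 54.8 ± 3.96 FPKM in control mice (log2 change -0.48, limma adjusted p = 1.25e-06), and *Gng10* at 32.3 ± 3.0 and 41.6 ± 2.51 FPKM in Tip60 cKO and control mice (log2 change -0.36, limma adjusted p = 9.81e-05). Both kept this call under every alternative tried. The other tested gamma subunits *Gng5*, *Gng8*, *Gng11* and *Gng12* and the alpha subunit *Gnai2* had log2 changes of at most 0.10 in size and did not pass, and the sign of *Gng5*, *Gng12* and *Gnai2* was negative under both other scalings. Of 27 listed effectors and partners of the beta-gamma dimer 3 were tested, the guanine nucleotide exchange factor gene *Prex1* and the phosphoinositide 3-kinase subunit genes *Pik3cg* and *Pik3r5*, with log2 changes of 0.04, 0.04 and 0.02 and none past the thresholds (none had an unadjusted limma p below 0.05).

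Of 9 other fatty acid binding protein genes listed, 5 were in the table and none was tested. Of 31 genes listed for fatty acid uptake and oxidation 7 were tested, 1 was higher, a share near the 19.8% of all tested genes, and none was lower, against 6.51%, with a median log2 change of 0.05. The higher gene was *Ppard*, which encodes a nuclear receptor for fatty acids, at 6.55 ± 0.471 FPKM in Tip60 cKO mice and 5.03 ± 0.392 FPKM in control mice (log2 change 0.32, limma adjusted p = 0.00011). Its fold was under the threshold of 1.2 after median-ratio scaling, at a log2 change of 0.22, and after upper-quartile scaling, at 0.26. *Dbi*, the acyl-CoA binding protein gene, was at 163 ± 23.4 FPKM in Tip60 cKO mice and 159 ± 12.5 FPKM in control mice and did not pass.

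Of 15 listed relatives of *Tceal5* 7 were tested, 2 were lower (6.51% of all tested genes) and none was higher (19.8%), with a median log2 change of -0.15. *Wbp5*, another Tceal gene, was at 24.1 ± 1.03 FPKM in Tip60 cKO mice and 30.7 ± 1.04 FPKM in control mice (log2 change -0.34, limma adjusted p = 1.43e-06). *Bex4* was at 9.79 ± 1.04 FPKM in Tip60 cKO mice and 12.7 ± 0.654 FPKM in control mice (log2 change -0.35, limma adjusted p = 0.000149). Both kept their call under every alternative tried. *Tceal1* (-0.21) and *Ngfrap1* (-0.15) passed the adjusted p but not the 1.2-fold threshold with scaling as deposited, and both were past it after median-ratio scaling, at -0.32 and -0.27. *Tceal8* (0.06), *Bex2* (-0.04) and the elongation factor gene *Tcea1* (-0.01) did not pass. Tceal and Bex genes are similar in sequence, and no source used here says how the counting divided reads between them.

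For *Tmem158* the genes of the Ras and ERK pathway were examined. Of 29 listed 5 were tested, 1 was lower (6.51% of all tested genes) and none was higher (19.8%), with a median log2 change of 0.14. The lower gene was *Map2k1*, which encodes the kinase that activates ERK, at 66.1 ± 2.06 FPKM in Tip60 cKO mice and 91.2 ± 6.35 FPKM in control mice (log2 change -0.46, limma adjusted p = 5.25e-07). *Dusp6* (0.23) and *Spry4* (0.20), both feedback inhibitors of this pathway, *Mapk3* (0.14) and *Sos1* (-0.17) passed the adjusted p but not the fold. After median-ratio scaling *Sos1* was also past the fold, at -0.28, whereas *Mapk3* (0.02, adjusted p = 0.759), *Dusp6* (0.12, adjusted p = 0.0779) and *Spry4* (0.11, adjusted p = 0.1) no longer passed limma's adjusted p.

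**Figure D3:**
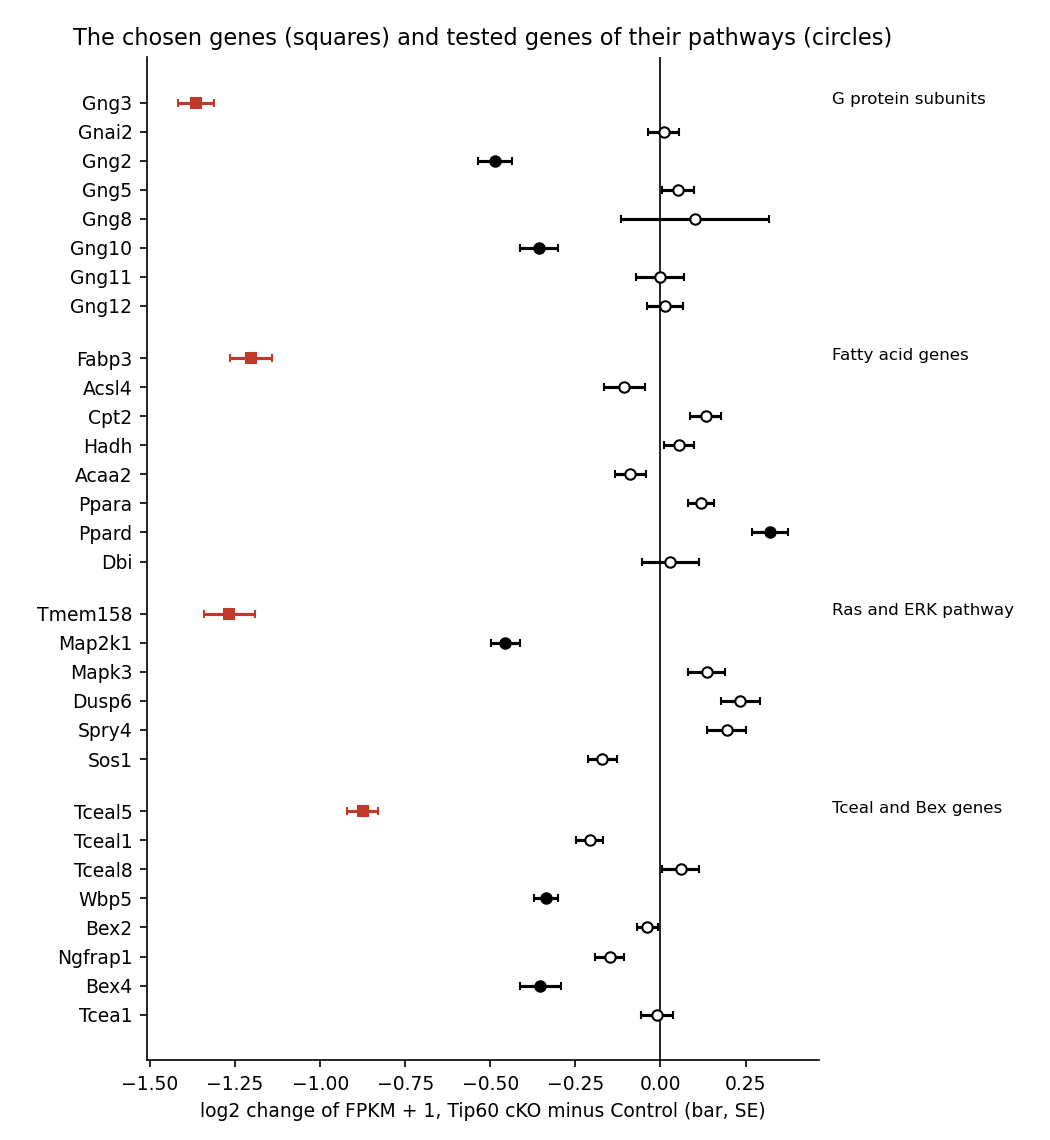
Log2 change of FPKM + 1, Tip60 cKO minus control (x axis, with SE), of *Gng3*, *Fabp3*, *Tmem158* and *Tceal5* (red squares, no test) and of the tested genes of their pathways (circles, filled where the gene passed both thresholds with scaling as deposited). *Gng2*, *Gng10*, *Map2k1*, *Wbp5* and *Bex4* are the filled circles on the negative side, at -0.48 to -0.34, and *Ppard* the one on the positive side, at 0.32.

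Markers of cell types were checked beside these values, and their part in the falls was not tested. The 6 genes were proposed as neuronal, but of 33 listed general neuronal genes 3 and of 14 listed excitatory CA1 genes 1 were in the table, too few to check that name. *Tubb3*, a neuronal tubulin gene, was lower in Tip60 cKO mice, at 90.4 ± 7.69 FPKM against 121 ± 8.11 FPKM in control mice (log2 change -0.42, limma adjusted p = 2.1e-05), while the log2 changes of *Nefm* (-0.13) and *Reep1* (0.02) did not pass. The summed level of these 3 genes ranged from 135 to 153 FPKM in Tip60 cKO libraries and from 164 to 185 FPKM in control libraries. *Pou3f1*, the 1 CA1 gene, was 1.90-fold higher. All 3 tested interneuron genes of 10 listed, *Sst* (0.96), *Npy* (1.11) and *Slc32a1* (0.30), were higher, as were 19.8% of all tested genes, with a summed level of 754 to 819 FPKM in Tip60 cKO libraries and of 376 to 439 FPKM in control libraries. *Slc32a1* was under the 1.2-fold threshold after both other scalings, at 0.19 and 0.23. Of 11 microglia genes 6 were tested, of which *C1qa*, *C1qc* and *Tyrobp* were higher and *P2ry13* was lower, against 19.8% higher and 6.51% lower of all tested genes. *C1qc* was under the fold threshold after both other scalings, at 0.21 and 0.25, and *P2ry13* without Tip60 cKO mouse 3, at -0.26. The summed microglia level was 118 to 153 FPKM in Tip60 cKO libraries and 107 to 125 FPKM in control libraries. Neither of the 2 tested oligodendrocyte genes of 8 listed passed the thresholds, with a summed level of 72.3 to 83.4 FPKM in Tip60 cKO libraries and 59.9 to 76.2 FPKM in control libraries, and no astrocyte gene was in the table.

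Co-variation between mice was then examined within each genotype, over 6 libraries, since the genotypes did not overlap in any of the 6 genes. In Tip60 cKO mice *Gng3*, *Fabp3* and *Tceal5* varied together. Pearson's r was 0.82 for *Gng3* and *Fabp3* (Spearman's rho 0.89), 0.73 for *Gng3* and *Tceal5* (rho 0.83) and 0.86 for *Fabp3* and *Tceal5* (rho 0.89). The exact two-sided permutation p of these r was 0.0486, 0.107 and 0.0292, and that of the rho was 0.0333, 0.0583 and 0.0333. None of the 30 relations (15 pairs in 2 genotypes) passed after adjustment, with a lowest adjusted p of 0.367 for r and 0.5 for rho by exact permutation. Without the 2 libraries farthest from the median of the first gene, r of these 3 pairs was 0.89, 0.98 and 0.92. Leaving out each Tip60 cKO library in turn gave r of 0.805 to 0.875, 0.693 to 0.919 and 0.659 to 0.957. The value of 0.659, for *Fabp3* and *Tceal5*, was that without Tip60 cKO mouse 1.

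In control mice the same 3 pairs had an r of 0.62 (rho 0.31), 0.53 (rho 0.20) and 0.65 (rho 0.77), with exact permutation p of 0.188, 0.325 and 0.163 for r and of 0.564, 0.714 and 0.103 for rho. Adjusted p was 0.511, 0.715 and 0.511 for r and 0.890, 0.892 and 0.583 for rho, by exact permutation. Without the 2 farthest libraries r was 0.88, 0.36 and 0.13. For *Gng3* and *Fabp3* single libraries moved the value: r was -0.39 without control mouse 3, which had the lowest level of both genes in its group (70.8 and 75.7 FPKM), and 0.89 without control mouse 1. Median-ratio scaling brought the 3 control values to 0.10, 0.31 and 0.29, whereas the Tip60 cKO values were 0.88, 0.81 and 0.91. Whether the correlations differed between the genotypes was not tested.

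*Fam163b* ran opposite to *Gng3* in both genotypes, with r of -0.77 in Tip60 cKO mice (rho -0.71, exact permutation p = 0.0611 and 0.136) and -0.58 in control mice (rho -0.49, exact permutation p = 0.206 and 0.356). Without the 2 farthest libraries r was -0.70 in Tip60 cKO mice and 0.28 in control mice. The controls left then spanned only 77.5 to 78.4 FPKM of *Gng3*, too little spread to read that value. Leaving out each control in turn gave r of -0.70 to -0.41. The control r was -0.83 after median-ratio scaling and -0.65 after upper-quartile scaling. Over all 15 pairs r ranged from -0.79 to 0.86 in Tip60 cKO mice, with a mean of 0.09, and from -0.71 to 0.75 in control mice, with a mean of 0.04. *Snn* had r between -0.25 and 0.09 with the other genes in Tip60 cKO mice. In control mice its r with *Gng3* was 0.75, the highest of the 15 control pairs (rho 0.54, exact permutation p = 0.0542 and 0.297, adjusted 0.367 and 0.667). That value was -0.58 without the 2 farthest libraries, 0.30 without control mouse 3 and 0.13 after upper-quartile scaling.

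**Figure D4:**
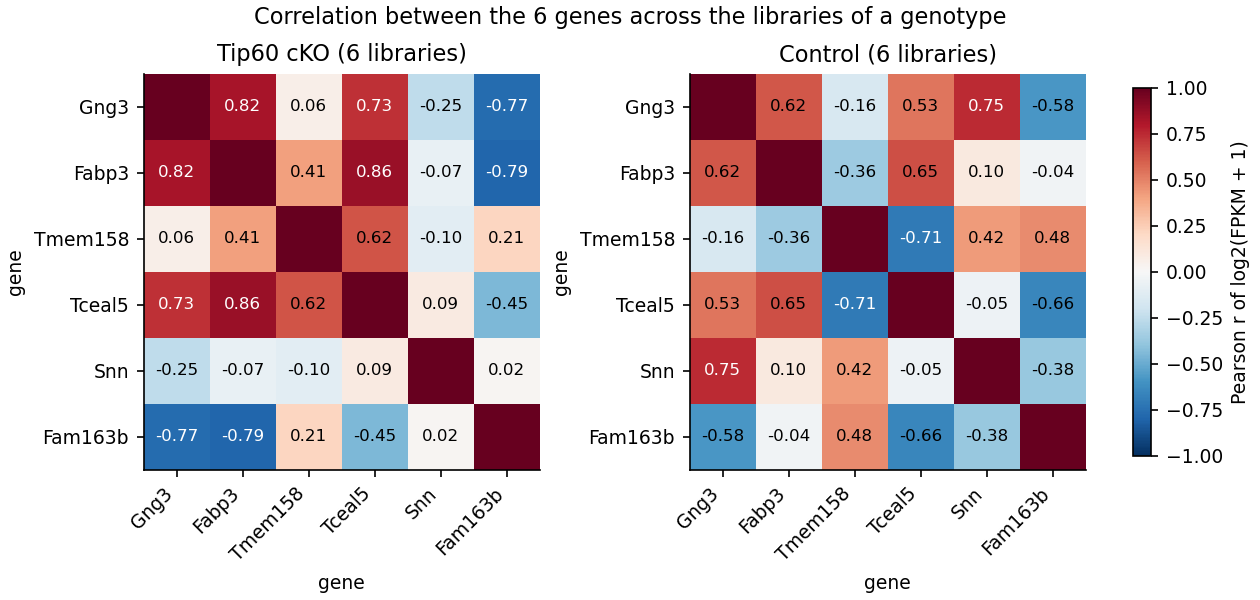
Pearson's r of log2(FPKM + 1) between the 6 genes over 6 Tip60 cKO libraries (left) and 6 control libraries (right), with red for positive and blue for negative values. *Gng3*, *Fabp3* and *Tceal5* correlate at 0.73 to 0.86 in Tip60 cKO mice, while *Fam163b* is negative with *Gng3* in both panels; none of the 30 values passed adjustment.

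The tested genes most like each member were sought by the correlation of their deviations from the genotype means over all 12 libraries, given here as a description since all genes share library depth. *Gng3* was most like *Lysmd1* (r = 0.90), *Lemd3* (0.89) and *6330403K07Rik* (0.84). *Tmem158* was most like *Ctxn1* (0.89), *Znhit2-ps* (0.84) and *Pou3f1* (0.84). *Fabp3* was most like *Abi3bp* (0.86), *1810046J19Rik* (0.85) and *Gm7120* (0.84), and *Tceal5* was most like *Abi3bp* (0.86), *Fabp3* (0.83) and *Tubb3* (0.80). *Abi3bp* was near the floor, at means of 0.75 FPKM in Tip60 cKO mice and 0.252 FPKM in control mice. It passed the filter of 0.5 FPKM only through the Tip60 cKO libraries. Its r with *Fabp3* was 0.91 in Tip60 cKO mice and 0.57 in control mice, and with *Tceal5* 0.85 and 0.92. *Snn* was most like *Alyref2* (0.87), *Prkg1* (0.79) and *Ddx18* (0.77), but its r with *Prkg1* was 0.33 in Tip60 cKO mice and 0.99 in control mice. These likenesses went across the direction of change: *Pou3f1* (log2 change 0.90), *Abi3bp* (0.47) and *Ddx18* (0.47) were higher in Tip60 cKO mice, whereas *6330403K07Rik* (-0.50), *Ctxn1* (-0.33), *Tubb3* (-0.42) and *Prkg1* (-0.43) were lower, and *Lysmd1*, *Lemd3*, *1810046J19Rik*, *Gm7120*, *Znhit2-ps* and *Alyref2* did not pass both thresholds.

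*Fam163b* was most like *Stxbp6* (0.93), *C1ql2* (0.92) and *Dsp* (0.91), and 13 of the 2411 other tested genes correlated with it above 0.80. *C1ql2* and *Dsp* are known markers of dentate granule cells, the neurons of the neighbouring dentate gyrus. A list of 12 dentate genes was then drawn up after seeing these values, and 5 of them were tested (*Dsp*, *C1ql2*, *Tdo2*, *Stxbp6* and *Maml2*). Their summed level ranged from 7.43 to 17.5 FPKM in Tip60 cKO libraries and from 7.75 to 22.7 FPKM in control libraries. It was high in Tip60 cKO mice 1 and 2 (17.0 and 17.5 FPKM) and low in control mice 1 and 2 (9.68 and 7.75 FPKM), as *Fam163b* was. None of the 5 genes passed the thresholds between the genotypes or had an unadjusted limma p below 0.05, and their median log2 change was -0.15.

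With the mean log2 level of these 5 genes *Fam163b* had an r of 0.91 in Tip60 cKO mice (rho 0.60) and of 0.91 in control mice (rho 0.94). These are descriptions with no test, since 3 of the 5 genes are those most like *Fam163b* in the same libraries. The Tip60 cKO value rested on mice 1 and 2, since r without the 2 farthest libraries was -0.04, while it was 0.82 in control mice. *Fabp3* ran opposite to the dentate genes in Tip60 cKO mice (r = -0.96, rho -0.94), with r of -0.96 also without the 2 farthest libraries. No test is given for this either, since the list was drawn up from the same libraries around *Fam163b*. The r of *Fabp3* with *Fam163b* itself was -0.79 in Tip60 cKO mice. In control mice the r of *Fabp3* with the dentate genes was 0.07 (rho -0.26). In Tip60 cKO mice *Gng3* (r = -0.81, rho -0.77) and *Tceal5* (r = -0.69, rho -0.77) also ran opposite to the dentate genes. In control mice their r was -0.33 (rho -0.26) and -0.66 (rho -0.71). The r of *Tmem158* was -0.20 in Tip60 cKO mice and 0.38 in control mice, and that of *Snn* was 0.15 and -0.20. These values too are given without a test. With the dentate level as a covariate, chosen after seeing the data, the log2 change of *Fam163b* was -0.62 (SE 0.06), against -0.76 (SE 0.12) without it. Those of the other 5 genes were then from -1.41 to -0.81. Since 3 of the 5 dentate genes are those most like *Fam163b* in the same libraries, a smaller SE follows from that choice. This fit is a description only. Tip60 cKO mouse 1 also held 201 FPKM of *Ttr*, a marker of the choroid plexus, against at most 0.911 FPKM in the other 11 libraries. Without this mouse the log2 changes were -1.34 for *Gng3*, -1.24 for *Tmem158*, -1.16 for *Fabp3*, -0.84 for *Tceal5*, -0.80 for *Snn* and -0.80 for *Fam163b*.

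**Figure D5:**
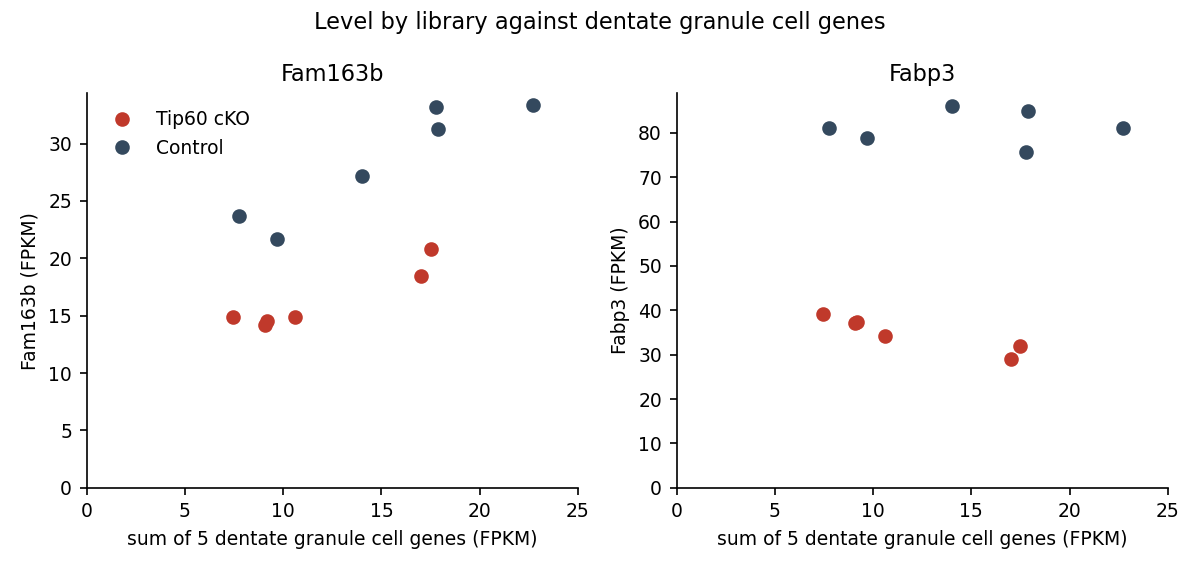
Level of *Fam163b* (left) and *Fabp3* (right) in FPKM against the summed level of 5 dentate granule cell genes in FPKM, in 6 Tip60 cKO (red) and 6 control (dark) libraries. Among controls *Fam163b* is higher where the dentate genes are higher. Among Tip60 cKO libraries this rests on mice 1 and 2, at 18.5 and 20.8 FPKM with sums of 17.0 and 17.5 FPKM, and *Fabp3* is lower there among Tip60 cKO libraries.

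Genes next to the members were looked up by their order in RefSeq. *Gng3* overlaps *Bscl2*, *Fabp3* overlaps *Zcchc17* and *Snn* overlaps *Txndc11*, none of which was in the table. Whether the libraries kept strand is not stated in the sources used, so reads from overlapping genes on opposite strands cannot be told apart. Of the nearest genes on either side, 1 was tested: *Hnrnpul2*, beside *Gng3*, was at 36.5 ± 1.17 FPKM in Tip60 cKO mice and 38.2 ± 1.62 FPKM in control mice (log2 change -0.07, limma adjusted p = 0.134). *Lrrn4cl*, on the other side of *Gng3*, and *Cdcp1*, beside *Tmem158*, were in the table but under the filter of 0.5 FPKM.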

How the data were processed

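Dorsal CA1 tissue from the 2 hemispheres of each mouse was pooled, as the study's methods state. TruSeq libraries were prepared from total RNA. The authors deposited 1 FPKM value per library and gene, which is not a count. Tools named in the submitters' processing notes are TopHat2 2.0.8, bedtools 2.16.2, CASAVA 1.8.2 and FastQC 0.10.0, with the mm9 build. The program that computed FPKM was not given in the sources used here.

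Of 10383 rows with 10245 symbols, 100 repeats were removed and 532 small RNA genes, 2414 genes at 0 throughout and 45 with isolated 0 values were set aside, which left 7254 genes. Those averaging 0.5 FPKM or more (2412) were tested with limma 3.58.1 (R 4.3.3, trend and robust) on log2(FPKM + 1), 6 Tip60 cKO against 6 control libraries, with Benjamini-Hochberg adjustment. Calls required an adjusted p below 0.05 and a fold above 1.2. The fits were tested on simulated data. Depth was estimated from the FPKM that 1 read gives. Replicate numbers only name mice, in the order of the samples. Members and gene lists were chosen with earlier results of these data known. Named were the members, 4 genes on either side of the last one in the order of falls, the 3 genes most like each, called genes of the lists, tested relatives and gene neighbours. *Gnai2*, *Dbi*, *Ttr* and list genes that did not pass are named outside this rule. For the Ras and ERK pathway, 1 gene is not reported here.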

Additional observations from a re-analysis of the deposited data

Results flagged for a closer look

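In 40 groups of 6 libraries, from the 6 genes and the 14 tested G protein subunit, Tceal and Bex genes, 2 libraries stood far from the others of their group. By chance about 1 in 20 groups is marked in this way. *Gng3* was at 70.8 FPKM in control mouse 3, where the other controls lay between 77.5 and 80.2 FPKM. *Ngfrap1* was at 86.1 FPKM in Tip60 cKO mouse 1, where the others of its group lay between 96.8 and 103 FPKM.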

How the results depend on the processing

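Median-ratio scaling moved the most values. It gave 279 lower and 282 higher genes in place of 157 and 477, log2 changes of -1.48 for *Gng3*, -0.99 for *Tceal5* and -0.93 for *Snn*, a median of -1.16 over the 6 genes, and a mean correlation between them of 0.24 in Tip60 cKO mice, against 0.09 as deposited. In control mice that mean was 0.04 as deposited, -0.12 after this scaling, -0.14 after upper-quartile scaling and -0.04 with Spearman's rho. All 157 lower genes were also lower after this scaling. Leaving out each library in turn gave 153 to 178 lower and 457 to 508 higher genes, and log2 changes of -1.40 to -1.34 for *Gng3*, -1.24 to -1.16 for *Fabp3*, -1.33 to -1.23 for *Tmem158*, -0.89 to -0.84 for *Tceal5*, -0.84 to -0.79 for *Snn* and -0.83 to -0.71 for *Fam163b*. The control rank of *Fabp3* then ranged from 122 to 126. The correlation of *Gng3* with *Fabp3* in control mice ranged from -0.39 to 0.89, and the mean correlation of the 15 pairs from 0.00 to 0.15 in Tip60 cKO mice and from -0.13 to 0.16 in control mice. *Acta2*, the 1 called gene of 4 tested vessel genes (log2 change 0.27, limma adjusted p = 0.0348), lost its call after both other scalings (0.16 and 0.20), without the filter (adjusted p = 0.0856) and without any 1 of 7 libraries (Tip60 cKO mice 2, 5 and 6, control mice 1 to 4; 0.21 to 0.27). The cause of these shifts was not tested. No paired analysis was possible because the labels give no replicate numbers. With 6 libraries a genotype, no exact two-sided permutation p under 0.00278 was possible.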

Other observations

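Among the relatives of *Fabp3* under the filter of 0.5 FPKM, *Pmp2*, a fatty acid binding protein of myelin, stood out after its values were seen. It ranged from 0.200 to 0.551 FPKM with a median of 0.280 in Tip60 cKO libraries, against 0 to 0.0431 FPKM with a median of 0.0103 in control libraries, of which 3 were at 0. Estimated from depth and transcript length, these values rest on about 95 reads summed over the Tip60 cKO libraries and about 4.4 reads summed over the control libraries. It was chosen for this difference, so no test is given. *Fabp1*, *Fabp2*, *Fabp4* and *Fabp12* were at means below 0.2 FPKM in both genotypes. The other listed genes of this family, among them *Fabp5* and *Fabp7*, were not in the deposited table, so their levels are not known here.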
